A study of Mus musculus with 12 samples.

Results

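The genes described here belong to the wall of brain blood vessels. They number 35: 26 genes of brain endothelium and 9 genes of mural cells, the pericytes and smooth muscle cells wrapped around it. They were taken by symbol from a table of 24421 genes, where all 35 were found. An expression filter on low counts, applied across all genes, was passed by 34 of them (all 26 endothelial and 8 mural genes). The exception was Tagln, with 1 to 13 counts per library. The libraries came from hippocampal tissue of mice aged 2 months, all of them given BrdU, controls included. There were 3 libraries for each of 4 genotype labels: WT, 5xFAD, p75NTRko and 5xFAD/p75NTRko. The 5xFAD line is a transgenic model of amyloid deposition, in which mutant human genes of inherited Alzheimer's disease are expressed from a Thy1 promoter, which is active in neurons and not known as a vascular promoter. p75NTRko names a knockout of the neurotrophin receptor encoded by Ngfr, whose allele the labels do not specify. The libraries are labelled as biological replicates, and neither the sex of the mice nor pooling is given.

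The endothelium of the brain forms the blood-brain barrier. Its cells are sealed by tight junctions of claudin-5 and occludin, restrict vesicle traffic through the lipid transporter Mfsd2a, carry glucose inward through Slc2a1 (GLUT1) and pump drugs and lipophilic compounds out through Abcb1a and Abcg2. Pericytes, recruited through the receptor Pdgfrb, keep the barrier closed, while smooth muscle cells, rich in the contractile proteins of Acta2, Tagln and Myl9, set the width of arterioles. In Alzheimer's disease models vessels have been studied for amyloid clearance, barrier leakage and loss of pericytes.

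Some features of the whole series bear on what follows. Gene-assigned depth lay between 4316739 and 6683613 counts per library, at which 3 counts amounted to 0.446 to 0.690 CPM (counts scaled to a common library size). The 35 genes drew 4297 to 7158 counts per library, 0.0831% to 0.119% of the total. Ngfr was higher in every library labelled p75NTRko or 5xFAD/p75NTRko (5.94 to 10.5 CPM) than in the rest (0.166 to 1.94 CPM), against the direction of the label, so receptor genotypes are named only as labelled. Thy1, whose regulatory sequence drives the transgenes, was at 1594 to 4014 CPM in the 6 carrier libraries and at 687 to 938 CPM in the other 6. Xist marked a class that the labels do not mention: it exceeded 359 CPM in all WT and 5xFAD/p75NTRko-labelled libraries and in p75NTRko replicate 1, and was at most 3.57 CPM in all 5xFAD libraries and in p75NTRko replicates 2 and 3. Ddx3y, a gene of the Y chromosome, ran the other way, at 107 to 133 CPM in the low class and at most 1.33 CPM in the high class. The high class thus had the pattern of female tissue and the low class that of male tissue. Xist class and genotype cannot be told apart in 5xFAD against WT or in 5xFAD/p75NTRko against 5xFAD. They nearly coincide in the interaction, which sets WT and 5xFAD/p75NTRko against 5xFAD and p75NTRko, where only p75NTRko replicate 1 breaks the match. The class is also unevenly split in every other comparison except 5xFAD/p75NTRko against WT. Markers of hippocampal neurons were present throughout, with a summed level of 716 to 1556 CPM over 8 genes. Choroid plexus markers varied widely, from 185 to 7491 CPM summed over 17 genes found in the table. So did 15 thalamic and habenular markers (437 to 1232 CPM). Hippocampal sums were 716 to 1131 CPM for WT, below every 5xFAD (1184 to 1556) and p75NTRko-labelled library (1286 to 1358). Thalamic sums ran the other way: 773 to 1060 CPM for WT, above 5xFAD (513 to 617) and p75NTRko-labelled libraries (490 to 504). Under the 5xFAD/p75NTRko label the ranges were 860 to 1284 CPM (hippocampal) and 437 to 1232 CPM (thalamic). The part of these differences in the vascular values was not tested.

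Vessel wall transcripts were detected in each library. No member passed the test in any of the 8 comparisons made across genotypes. Summed over the 26 endothelial genes, the level was 1002 ± 46.3 CPM for WT, 890.4 ± 26.9 for 5xFAD, 964 ± 103 under the p75NTRko label and 852 ± 72.6 under the 5xFAD/p75NTRko label (mean ± SD, 3 libraries each). The 9 mural genes summed to 86.2 ± 16.9, 87.2 ± 5.4, 76.3 ± 3.89 and 80.5 ± 7.57 CPM in the same order. The summed endothelial level of every WT library (966 to 1055 CPM) exceeded that of every 5xFAD (865 to 919) and 5xFAD/p75NTRko-labelled library (780.2 to 925), while the mural sums overlapped except that every 5xFAD library (82.3 to 93 CPM) was above every p75NTRko-labelled library (72.7 to 80.5 CPM). The sums are weighted toward abundant genes such as Slc2a1 (mean 155 CPM in WT, 118 in 5xFAD) and Mfsd2a (92.8 and 59.6). By mean log2 CPM of the same endothelial genes, WT (4.06 to 4.45) overlapped with 5xFAD (4.12 to 4.18) and the 5xFAD/p75NTRko label (3.96 to 4.24). Under the p75NTRko label the range was 4.21 to 4.31, above every 5xFAD library. A list of 39 other endothelial genes summed to 1153 ± 79.5 CPM for WT and 1248 ± 68.4 for 5xFAD. Since bulk tissue was sequenced, fewer vascular cells and less RNA per cell cannot be told apart in any of these values.

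**Figure D1:**
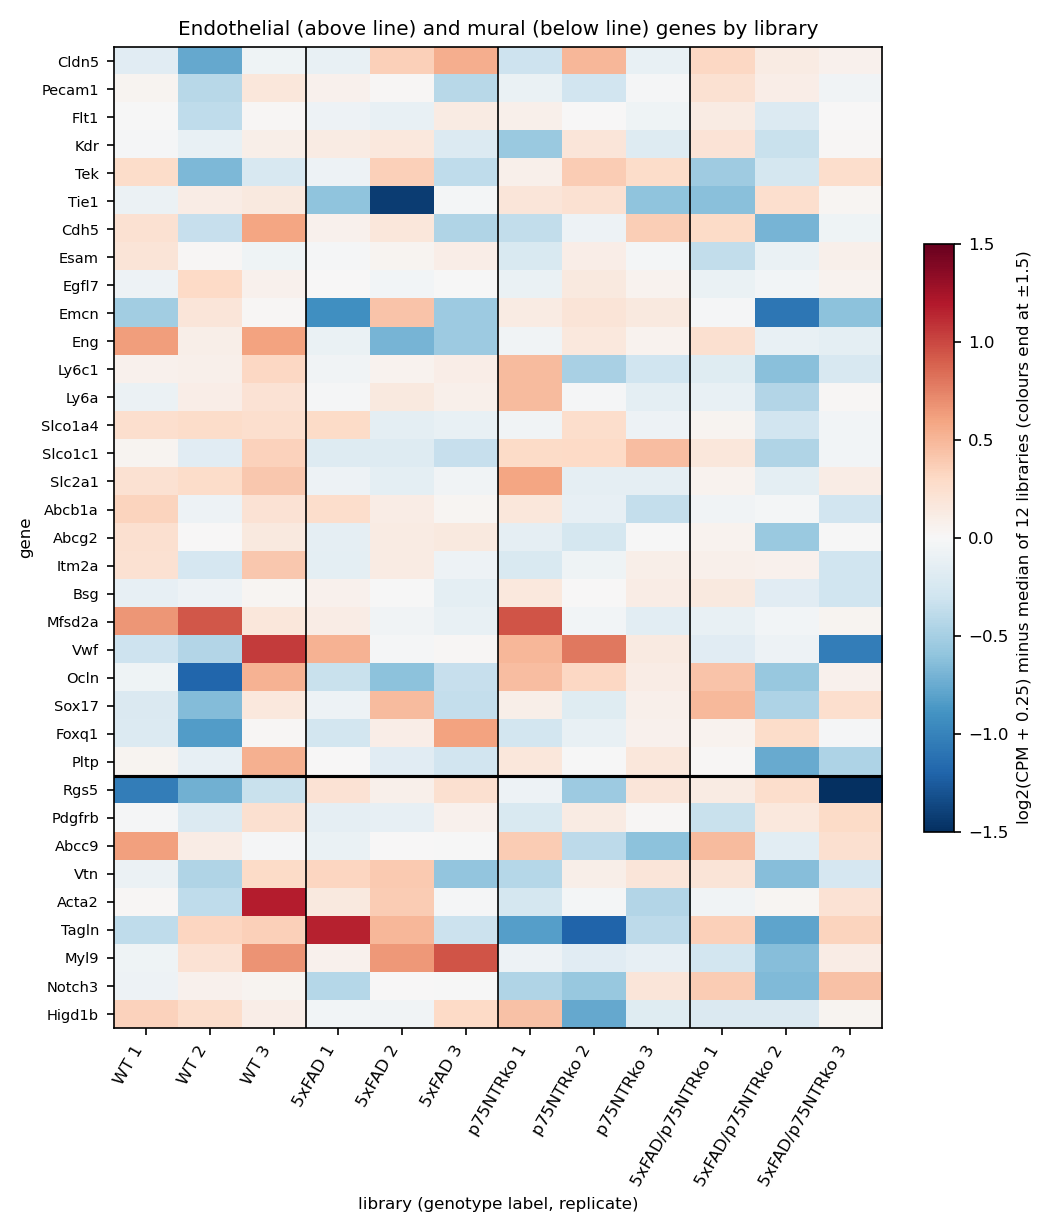
Level of each of the 35 genes (rows) in each of the 12 libraries (columns), as log2(CPM + 0.25) minus the gene's median over the libraries, with endothelial genes above the horizontal line and mural genes below it. Red is above and blue below the gene's median; WT replicate 3 is mostly red and 5xFAD/p75NTRko replicate 2 mostly blue, and no genotype block is of 1 colour throughout.

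Fitted over all 13065 genes that passed the filter, with edgeR's quasi-likelihood test and Benjamini-Hochberg adjustment, 0 of 34 members had an adjusted p under 0.05 in any comparison, and the smallest adjusted p was 0.189. DESeq2 also called 0 members in each. The shares over all genes that follow are those of edgeR. The share of all genes called was 0.0536% in 5xFAD against WT, 0% in p75NTRko against WT, 0.0383% in 5xFAD/p75NTRko against 5xFAD, and 0% in both 5xFAD/p75NTRko against p75NTRko and 5xFAD/p75NTRko against WT. For the interaction of both genotypes it was 0.0383%. Averaged over the other genotype, it was 0.0153% for the 6 transgene carriers against the 6 non-carriers and 0.0842% for the 6 receptor-labelled libraries against the other 6.

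At an unadjusted p under 0.05 the share of members was close to or below that of all genes in most comparisons. In 5xFAD against WT, 5 of 34 members reached it, 14.7% against 13.9% of all genes tested, 2 of them higher (background 7.73%) and 3 lower (background 6.14%). In p75NTRko against WT none did (0 of 34, background 11.5%). In 5xFAD/p75NTRko against 5xFAD 1 did (background 5.08%), against p75NTRko 2 (background 6.59%) and against WT 4 (background 9.95%). For carriers against non-carriers 5 members did, all of them endothelial and lower (background 10.3%, of which 4.26% lower). The counts were 2 for the receptor label (background 6.3%) and 1 for the interaction (background 9.32%).

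Fold changes of endothelial genes lay below 0 for 19 of 26 genes in 5xFAD against WT (median -0.10 on the log2 scale, against -0.00356 over all genes). In 5xFAD/p75NTRko against WT 19 of 26 did so (median -0.19, all genes 0.00425), and in carriers against non-carriers 20 of 26 (median -0.14, all genes 0.00539). Both WT comparisons share the WT libraries, and without WT replicate 3 their medians were -0.0338 and -0.0897. Against 5xFAD and against p75NTRko, the medians in 5xFAD/p75NTRko-labelled libraries were -0.062 and -0.0947, with 19 and 20 of 26 genes below 0. Leaving out 1 library moved the first to between -0.10 (without 5xFAD replicate 3) and -0.0223 (without 5xFAD/p75NTRko replicate 2), and the second to between -0.18 (without 5xFAD/p75NTRko replicate 1) and -0.0575 (without p75NTRko replicate 2). Of all genes tested, 49.6% were above 0 in 5xFAD against WT, 50.8% in 5xFAD/p75NTRko against WT, 51.5% in carriers against non-carriers, 52.8% in 5xFAD/p75NTRko against 5xFAD and 53.3% in 5xFAD/p75NTRko against p75NTRko. For the 8 mural genes the medians were -0.12 in 5xFAD against WT, -0.28 in p75NTRko against WT and 0.0367 in carriers against non-carriers, with 7 of 8 above 0 in the last. That last median was -0.024 without WT replicate 2 and 0.11 without WT replicate 3. Leaving out WT replicate 3 turned the mural median in 5xFAD against WT to 0.19 and moved that in p75NTRko against WT to -0.15; the endothelial median in p75NTRko against WT likewise went from -0.0764 to 0.0455.

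The intervals around the fold changes show what size of difference the 12 libraries could leave unseen. In carriers against non-carriers the 95% interval lay inside a 2-fold difference in either direction for 32 of 34 genes and inside 1.5-fold for 21. For the receptor label the counts were 32 and 22. With 3 libraries against 3 they were smaller: 26 and 13 in 5xFAD against WT, and 25 and 12 in p75NTRko against WT. For 5xFAD/p75NTRko they were 25 and 9 against WT, 28 and 14 against 5xFAD, and 28 and 11 against p75NTRko. The interaction had the fewest, 18 and 6. Members with wide intervals, such as Vwf, Tie1, Ocln and Rgs5, had few counts.

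**Figure D2:**
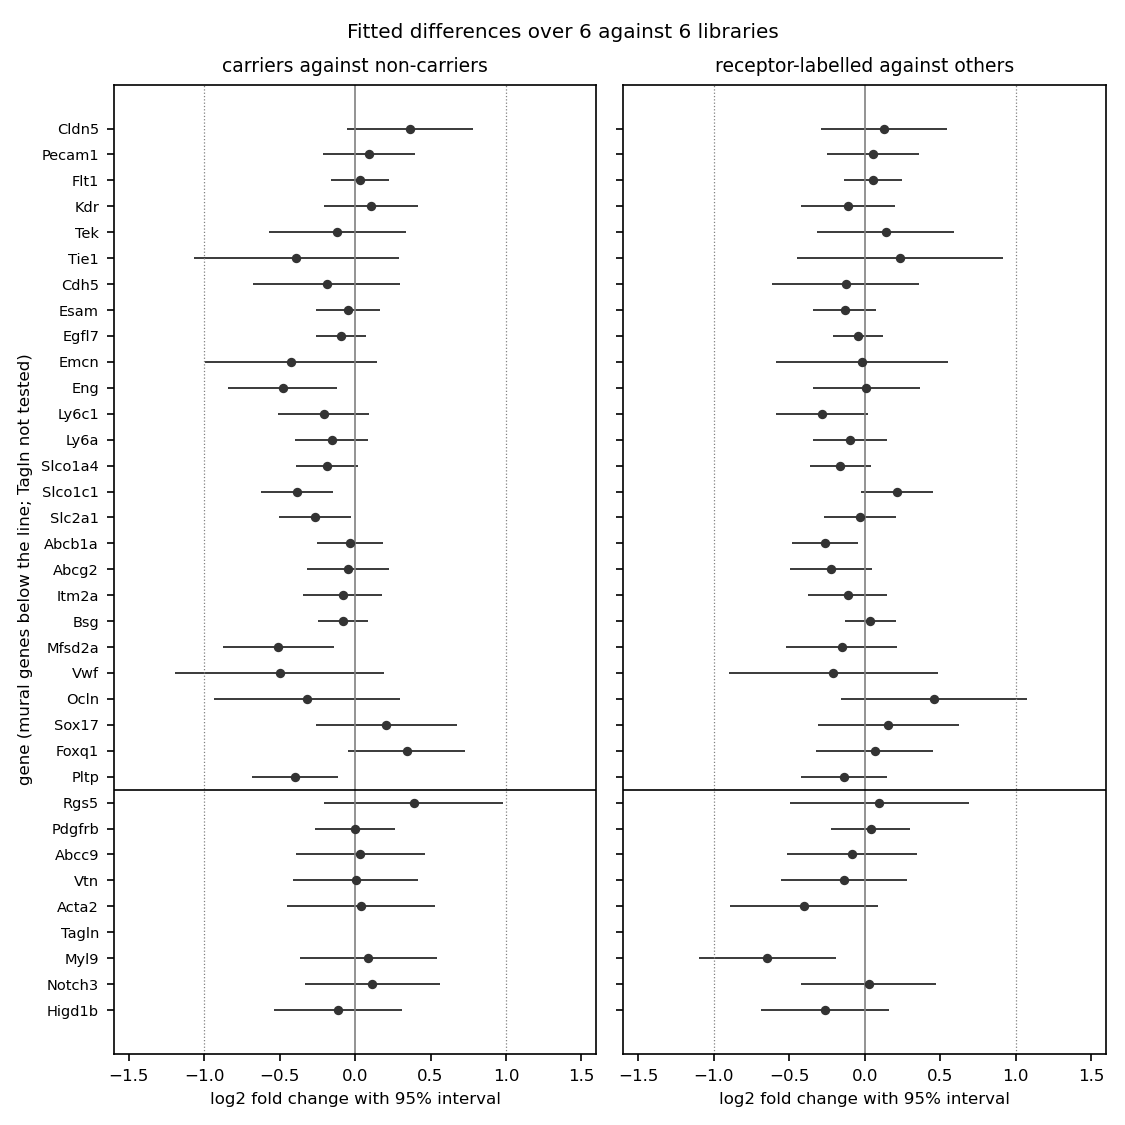
Log2 fold change (points) with 95% interval (lines) of each member for the 6 carriers against the 6 non-carriers of the transgenes (left) and the 6 receptor-labelled libraries against the other 6 (right); the dotted lines mark a 2-fold difference. Most intervals cross 0, none of the genes passed the adjusted threshold, and Slco1c1 and Pltp sit farthest from 0 relative to their intervals on the left and Myl9 on the right.

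Levels of the members spanned more than 100-fold. In 3′ tag sequencing each transcript is read once near its end, so CPM carries no gene-length term. Levels of different genes can still be set side by side only roughly. Annotation and strand setting of the counting are not given, and most reads were not assigned to genes. Bsg, which encodes basigin, a membrane glycoprotein present on many cells besides endothelium, was the most abundant with a mean of 165 CPM over the 12 libraries, followed by Slc2a1 with 135, Mfsd2a with 71.9, Egfl7 with 65.5 and Slco1a4 with 62.7 CPM. At the other end stood Tagln with 0.911, Tie1 with 1.74, Vwf with 2.62 and Ocln with 3.23 CPM. In 9 members at least 1 library had under 20 counts, and in 14 every library had over 100. The highest library exceeded the lowest by less than 2-fold in 14 members, by 2-fold to 3-fold in 13 and by 3-fold or more in 8.

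Junction and adhesion genes came first among the defining markers. Cldn5, the main barrier claudin, had 5.52, 3.57 and 5.96 CPM for WT, 5.76, 8.06 and 9.24 for 5xFAD, 5, 8.95 and 5.79 under the p75NTRko label and 7.81, 6.81 and 6.55 under the 5xFAD/p75NTRko label (here and below, replicates 1, 2 and 3 in order). WT replicate 2 was the lowest and 5xFAD replicate 3 the highest, and WT overlapped with 5xFAD. Set against WT, the 5xFAD libraries gave a log2 fold change of 0.60 (standard error 0.278, edgeR adjusted p 0.354), resting on 22 to 47 counts per library. Ocln (occludin) ranged over 1.3 to 4.8 CPM. Of the adhesion molecules, Pecam1 (CD31) ranged over 7.94 to 12.6, Cdh5 (VE-cadherin) over 3.5 to 8.94, Esam over 22.4 to 33.3 and Emcn (endomucin) over 1.95 to 6 CPM. None of these 5 had an adjusted p under 0.595 in any comparison by edgeR.

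Receptors for vessel growth factors gave no p under 0.05 apart from Eng, described next. Flt1, which encodes VEGF receptor 1 and its soluble decoy form, had 53.1, 40.7 and 53.8 CPM for WT, 50.5, 49.1 and 57.8 for 5xFAD, 55.9, 53.3 and 50.8 under the p75NTRko label and 57.7, 45.9 and 53.2 under the 5xFAD/p75NTRko label. Apart from WT replicate 2, the lowest, all libraries lay between 45.9 and 57.8 CPM, and the interval of the log2 fold change in carriers against non-carriers was -0.16 to 0.23. Kdr, the main signalling VEGF receptor, ranged over 8.14 to 14 CPM, the angiopoietin receptor gene Tek (Tie2) over 3.73 to 8.03 and its partner Tie1 over 0.562 to 2.34.

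Eng encodes endoglin, a co-receptor for TGF-beta and BMP ligands, and had the smallest p-value of any member in any comparison. It had 10.3, 6.97 and 10.1 CPM for WT, 6.1, 3.94 and 4.41 for 5xFAD, 6.29, 7.35 and 6.83 under the p75NTRko label and 7.81, 6.03 and 5.89 under the 5xFAD/p75NTRko label. Every 5xFAD library was below every WT library, as was the case for 4 of 26 endothelial genes (9.01% of all genes tested were separated in that direction). The means were 9.12 ± 1.87 and 4.82 ± 1.14 CPM (SD, n = 3 each), with a log2 fold change of -0.91 (standard error 0.24, edgeR adjusted p 0.189) and an interval of -1.42 to -0.40. The difference ranked 124th among all genes tested. In p75NTRko against WT the log2 fold change was -0.42 (standard error 0.23, edgeR adjusted p 0.489) and for the interaction 0.86 (standard error 0.338, edgeR adjusted p 0.488), and neither passed. On GRCm38, Eng lies on chromosome 2 at chr2:32646595-32682669 (GENCODE M21), where its exons overlap those of Fpgs on the opposite strand. The use of strand in the authors' counting is not given in the sources used here; Fpgs, at 3.32 to 6.1 CPM, had a log2 fold change of 0.24 in 5xFAD against WT (adjusted p 0.675, edgeR).

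Among transporters, Mfsd2a and Slc2a1 had the largest spread within genotypes relative to counting error. Mfsd2a, the lysophosphatidylcholine transporter that brings docosahexaenoic acid into the brain, had 95.2, 115 and 67.7 CPM for WT, 65.1, 57.9 and 55.9 for 5xFAD, 117, 58.8 and 53.9 under the p75NTRko label and 55.7, 58.4 and 61.9 under the 5xFAD/p75NTRko label. WT replicates 1 and 2 and p75NTRko replicate 1 lay above 95 CPM, and the other 9 between 53.9 and 67.7 CPM. All 3 high libraries were of the high Xist class, but so were 4 of the 9 others. Slc2a1 had 147, 153 and 166 CPM for WT, 119.5, 114 and 121 for 5xFAD, 189.7, 115 and 114 under the p75NTRko label and 130.0, 113 and 136 under the 5xFAD/p75NTRko label. Its highest value was again p75NTRko replicate 1, followed by the 3 WT libraries, and the other 8 lay between 113 and 136 CPM. Within genotypes, the coefficient of variation was 26.7% for Mfsd2a, 5.28 times that from counting, and 16.6% for Slc2a1, 4.58 times, against a median ratio of 1.68 over the 35 members.

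Both genes separated WT from 5xFAD without passing. The log2 fold change of Mfsd2a was -0.64 (standard error 0.242, edgeR adjusted p 0.303) in 5xFAD against WT and -0.66 (standard error 0.241, edgeR adjusted p 0.469) in 5xFAD/p75NTRko against WT, with every library of either genotype below every WT library; 4 of 26 endothelial genes were so placed in 5xFAD/p75NTRko against WT (background 5.53%). With Xist class as a term the first became 0.42 (adjusted p 0.949, edgeR), with the opposite sign; the term rests on p75NTRko replicate 1 against replicates 2 and 3, the 1 genotype label with both classes. In 5xFAD/p75NTRko against WT, libraries of both groups are of the high class. For Slc2a1 the log2 fold change was -0.39 (standard error 0.158, edgeR adjusted p 0.32) in 5xFAD against WT and -0.27 (standard error 0.112, edgeR adjusted p 0.444) in carriers against non-carriers.

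Since these transporter genes were highest in overlapping sets of libraries, and since promoter sequence was at hand for both, the bases before their annotated starts are shown with ACGTG, the core letters bound by hypoxia-inducible and clock factors, in capitals on either strand. In all 6 motifs were searched, and this one was chosen after the letters of both promoters had been read. The sequences are from RefSeq on GRCm38.p6: the Slc2a1 window is chr4:119108495-119108744 on the plus strand and the Mfsd2a window chr4:122961189-122961438 on the minus strand.
Slc2a1: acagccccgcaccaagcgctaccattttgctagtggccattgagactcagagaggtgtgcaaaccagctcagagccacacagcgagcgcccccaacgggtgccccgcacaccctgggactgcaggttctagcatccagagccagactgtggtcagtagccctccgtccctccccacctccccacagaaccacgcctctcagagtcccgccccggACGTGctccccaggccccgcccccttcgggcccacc
Mfsd2a: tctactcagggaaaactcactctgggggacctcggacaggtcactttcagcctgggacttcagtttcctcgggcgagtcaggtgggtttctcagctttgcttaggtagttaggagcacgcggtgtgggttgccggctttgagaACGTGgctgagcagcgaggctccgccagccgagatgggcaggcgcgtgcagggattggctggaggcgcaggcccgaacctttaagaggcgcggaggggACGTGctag
Slc2a1 holds the letters once, 36 bases before its start, and Mfsd2a at 107 and 9 bases before. In windows from 250 bases before to 50 after a start they occur in 19.6% of all 32851 promoters and in 3 of the 24 promoters matched to 18 endothelial members, 12.5%. The third is Slco1c1, which holds the letters at 2 places. The other motifs were the CArG box, described with the smooth muscle genes, CCGGAAG (8.86% of all promoters, 0% of the endothelial ones), GGAA (96% and 91.7%), TATAAA (8.32% and 29.2%) and GGGCGG (35.7% and 45.8%). TATAAA was searched on the sense strand only and the other motifs on both strands. A match is a string of letters and was not tied to binding here.

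Slco1a4, an organic anion carrier of brain endothelium, had 71.2, 72.3 and 71.4 CPM for WT, 72.9, 54 and 55.2 for 5xFAD, 57.7, 71.9 and 56.7 under the p75NTRko label and 61.8, 48.9 and 58 under the 5xFAD/p75NTRko label. All 3 WT libraries lay within about 1 CPM of each other and above all 3 of 5xFAD/p75NTRko, and the log2 fold change between them was -0.35 (standard error 0.134, edgeR adjusted p 0.472). Slco1c1, a thyroxine transporter found in endothelium and astrocytes, had 44.8, 38.7 and 55.2 CPM for WT, 38.1, 37.9 and 34.2 for 5xFAD, 53.3, 53.5 and 60.3 under the p75NTRko label and 48.9, 31.7 and 42.2 under the 5xFAD/p75NTRko label. p75NTRko-labelled libraries were above all 6 carrier libraries (3 of 26 endothelial genes were lower without overlap in 5xFAD/p75NTRko against p75NTRko, background 5.74%), with a log2 fold change of -0.44 (standard error 0.156, edgeR adjusted p 0.711) in 5xFAD/p75NTRko against p75NTRko and -0.39 (standard error 0.111, edgeR adjusted p 0.29) in carriers against non-carriers. Without 5xFAD/p75NTRko replicate 2 the first of these was -0.29. The carriers and non-carriers overlapped through WT.

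Of the efflux pumps, Abcb1a (P-glycoprotein) had 68.5, 51.2 and 63.1 CPM for WT, 65.1, 58.3 and 55.2 for 5xFAD, 60.7, 49.8 and 42.3 under the p75NTRko label and 52.2, 52.9 and 44.2 under the 5xFAD/p75NTRko label. Its log2 fold change for the receptor label over 6 against 6 libraries was -0.26 (standard error 0.102, edgeR adjusted p 0.72), and the groups overlapped. Its copy Abcb1b, whose reads could be confused with it, had only 1.84 to 5.45 CPM. Abcg2 (breast cancer resistance protein) ranged over 9.15 to 16.1 CPM. Bsg had 153, 158 and 171 CPM for WT, 174, 166 and 150.4 for 5xFAD, 186, 167 and 179.6 under the p75NTRko label and 184, 149 and 136 under the 5xFAD/p75NTRko label, the narrowest range of the members after Egfl7, and no adjusted p under 0.635 by edgeR.

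Surface antigens and secreted proteins of endothelium made up the rest. Ly6c1, a GPI-anchored antigen, had 45.1, 45.2 and 53.3 CPM for WT, 41.5, 44.4 and 46 for 5xFAD, 59.8, 30.5 and 34.7 under the p75NTRko label and 37.7, 27.8 and 36.3 under the 5xFAD/p75NTRko label. The 5xFAD/p75NTRko-labelled libraries lay below all WT and all 5xFAD libraries (3 of 26 endothelial genes were lower without overlap against 5xFAD, background 6.03%), with log2 fold changes of -0.49 (standard error 0.201, edgeR adjusted p 0.483) and -0.37 (standard error 0.203, edgeR adjusted p 0.98). In p75NTRko-labelled libraries the spread was nearly 2-fold, from replicate 2 to replicate 1. Ly6a (Sca-1), also on chromosome 15, ranged over 30.4 to 57.2 CPM and was highest and lowest in the same libraries as Ly6c1, p75NTRko replicate 1 and 5xFAD/p75NTRko replicate 2. The near-identical Ly6c2 had at most 9 counts.

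Pltp encodes phospholipid transfer protein and is expressed in other brain cells as well. It had 52.2, 46.7 and 73.4 CPM for WT, 51, 45 and 41.6 for 5xFAD, 57.4, 50.5 and 57 under the p75NTRko label and 51.4, 29.98 and 36.8 under the 5xFAD/p75NTRko label, with WT replicate 3 highest and 5xFAD/p75NTRko replicate 2 lowest. The fitted log2 difference was -0.54 (standard error 0.189, edgeR adjusted p 0.469) in 5xFAD/p75NTRko against WT, -0.48 (standard error 0.19, edgeR adjusted p 0.713) against p75NTRko and -0.40 (standard error 0.134, edgeR adjusted p 0.359) in carriers against non-carriers. Without WT replicate 3 the first of these was -0.33, and without 5xFAD/p75NTRko replicate 1 the second was -0.72, neither past the threshold. Without WT replicate 3 and 5xFAD/p75NTRko replicate 1 together, Pltp was called in 5xFAD/p75NTRko against p75NTRko (log2 fold change -0.72, adjusted p 0.0408, edgeR). It was the 1 member called in any alternative. With both libraries out, 56 of all genes tested were called in that comparison, against 0 in the fit to all 12 libraries. Each of these 2 libraries had the highest summed fibroblast level within its own genotype label. However, 5xFAD replicate 2 (238 CPM) was above 5xFAD/p75NTRko replicate 1 (219 CPM). Leaving out both was an alternative chosen after seeing the data. Exons of Pltp overlap those of Ctsa on the opposite strand; Ctsa had 37.2 to 52 CPM and a log2 fold change of -0.17 in carriers against non-carriers (adjusted p 0.481, edgeR). Egfl7, a secreted angiogenic factor and the host gene of miR-126, ranged over 59.96 to 79.4 CPM, the narrowest range of all members. Itm2a, an X-linked membrane protein gene, ranged over 21.1 to 34.4 CPM and Vwf, the clotting factor of larger vessels, over 0.982 to 4.97. The transcription factor genes Sox17, of arterial endothelium, and Foxq1, enriched in brain endothelium, ranged over 3.57 to 8.15 and 5.19 to 14.5 CPM.

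**Figure D3:**
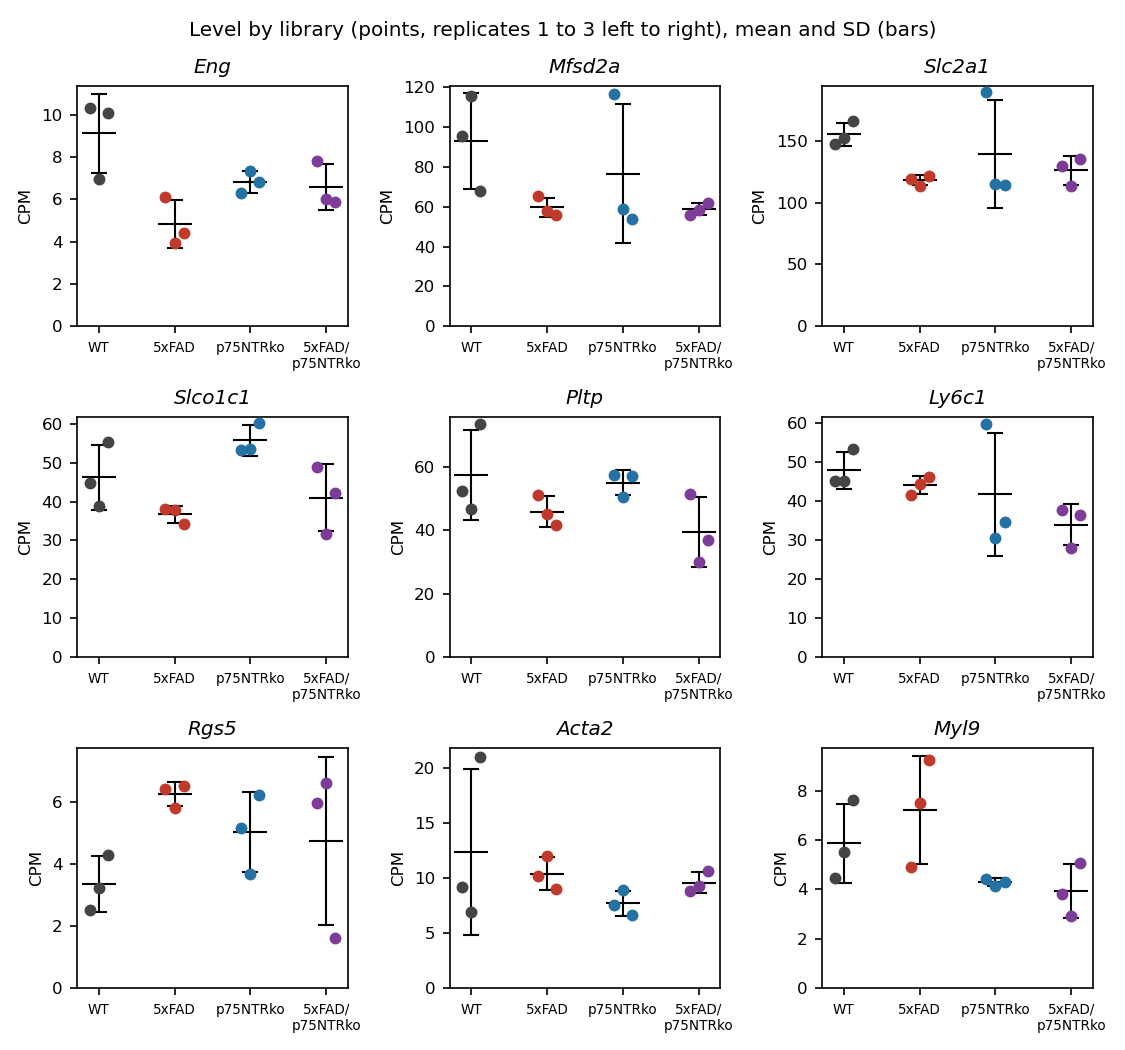
CPM (vertical axes, from 0) of 9 members in each library (points, replicates 1 to 3 from left to right within a genotype label), with mean and SD over 3 libraries (black bars). Eng is lowest in 5xFAD, Mfsd2a is above 95 CPM in 3 libraries of 2 genotypes, and Acta2 is high in WT replicate 3 alone.

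Pericyte genes gave no separation that held across genotypes. Rgs5, a regulator of G-protein signalling that marks pericytes, had 2.54, 3.24 and 4.31 CPM for WT, 6.44, 5.81 and 6.51 for 5xFAD, 5.18, 3.67 and 6.23 under the p75NTRko label and 5.98, 6.62 and 1.64 under the 5xFAD/p75NTRko label. All 5xFAD libraries were above all WT libraries (1 of 8 mural genes, where 10.5% of all genes were separated that way), while 5xFAD/p75NTRko held both the highest and the lowest library of all. The fitted log2 difference was 0.90 (standard error 0.395, edgeR adjusted p 0.34) in 5xFAD against WT and -1.02 (standard error 0.555, edgeR adjusted p 0.572) for the interaction (-0.60 without 5xFAD/p75NTRko replicate 3), on 10 to 42 counts. Pdgfrb, the PDGF-B receptor, had 21.8, 19.1 and 26 CPM for WT, 20.003, 20.2 and 23.1 for 5xFAD, 18.7, 24.1 and 22.3 under the p75NTRko label and 17.5, 24.5 and 26.8 under the 5xFAD/p75NTRko label. Its genotypes overlapped throughout, the interval of its log2 fold change in carriers against non-carriers was -0.26 to 0.27, and its smallest adjusted p was 0.855, the largest such value of any member.

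Vtn encodes vitronectin, a pericyte-secreted matrix protein that acts on endothelial integrins. It had 19.5, 15.1 and 25.3 CPM for WT, 25.9, 27.4 and 13.7 for 5xFAD, 15.4, 22 and 23.6 under the p75NTRko label and 23.8, 13.2 and 17.4 under the 5xFAD/p75NTRko label. High and low libraries occurred in every genotype, and the spread within genotypes was 3.01 times counting error. Abcc9, the sulfonylurea receptor of the pericyte potassium channel, ranged over 4.3 to 10.4 CPM, the Notch receptor gene Notch3 over 4.28 to 9.5 and Higd1b over 2.98 to 7.22.

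The smooth muscle genes were Acta2, Myl9 and Tagln. Acta2 (smooth muscle actin) had 9.25, 6.97 and 21 CPM for WT, 10.2, 12 and 9.03 for 5xFAD, 7.59, 8.95 and 6.68 under the p75NTRko label and 8.81, 9.34 and 10.6 under the 5xFAD/p75NTRko label. The value of WT replicate 3 was 21 CPM, and the other 11 libraries reached at most 12 CPM. The log2 fold change in p75NTRko against WT was -0.69 (standard error 0.325, edgeR adjusted p 0.437) and went to -0.0831 without that library. Myl9, the regulatory light chain of smooth muscle myosin, had 4.48, 5.51 and 7.62 CPM for WT, 4.92, 7.5 and 9.24 for 5xFAD, 4.44, 4.13 and 4.3 under the p75NTRko label and 3.82, 2.92 and 5.08 under the 5xFAD/p75NTRko label. Receptor-labelled libraries had 2.92 to 5.08 CPM and the others 4.48 to 9.24 CPM, so that the groups overlapped; the log2 fold change was -0.65 (standard error 0.212, edgeR adjusted p 0.629) over all 12 libraries and -0.85 (standard error 0.3, edgeR adjusted p 0.797) in 5xFAD/p75NTRko against 5xFAD. Tagln (transgelin), too low to test, had 0.597, 1.13 and 1.16 CPM for WT, 2.2, 1.31 and 0.63 for 5xFAD, 0.37, 0.23 and 0.594 under the p75NTRko label and 1.16, 0.389 and 1.15 under the 5xFAD/p75NTRko label, and 3 counts or fewer in 4 of the 12.

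Contractile genes are classic targets of serum response factor, which binds the CArG box. Searched on both strands in the same promoter windows, the box occurred in 1.63% of all promoters, in none of the 24 of endothelial members (0%) and in 1 of the 6 matched to mural members (16.7%), that of Myl9. The letters before the Myl9 start, chr2:156775214-156775463 on the plus strand of GRCm38.p6 (RefSeq), are shown with the box in capitals, 161 bases before the start.
Myl9: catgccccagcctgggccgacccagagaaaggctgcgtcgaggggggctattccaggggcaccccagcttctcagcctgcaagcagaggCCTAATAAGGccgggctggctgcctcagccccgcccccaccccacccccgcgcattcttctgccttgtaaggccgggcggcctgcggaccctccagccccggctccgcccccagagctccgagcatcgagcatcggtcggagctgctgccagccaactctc
Only the strict form of the box was searched: CC, then 6 letters that are each A or T, then GG. The Acta2 window held no match to this form, and variants of it were not searched. Tagln had no matched promoter window. Promoter windows were matched for 24 of the 35 members.

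The rest of the vascular programme was followed through lists of other genes, in which 0 genes passed in any comparison by edgeR. Of 39 other endothelial genes 35 were tested. At an unadjusted p under 0.05 they numbered 7 in 5xFAD against WT, 20% against 13.9% of all genes, with 4 higher and 3 lower. In carriers against non-carriers they numbered 8, 22.9% against 10.3% of all genes, with 4 in each direction (backgrounds 5.99% higher and 4.26% lower). Their fold changes had a log2 median of 0.0622 in 5xFAD against WT and 0.000722 in carriers against non-carriers, where that of the members was below 0. Spock2, a testican, had 28.6, 40.5 and 34.5 CPM in 5xFAD against 20.3, 23.5 and 21 in WT and 22.4, 19.9 and 19.5 in 5xFAD/p75NTRko-labelled libraries. All 5xFAD libraries were above the rest, with a log2 fold change of -0.74 (standard error 0.148, edgeR adjusted p 0.168) in 5xFAD/p75NTRko against 5xFAD by edgeR; DESeq2 called it, with an adjusted p of 0.0194. Slc16a1, the lactate transporter MCT1, had 23.7, 22 and 34.1 CPM in WT and 42.7, 36.2 and 40.8 in 5xFAD, a log2 fold change of 0.58 (standard error 0.161, edgeR adjusted p 0.21) that passed without WT replicate 3 (adjusted p 0.0447). Over 20 alternatives the log2 fold change of Slc16a1 in 5xFAD against WT ranged over 0.27 to 0.79, and it passed in 2 of them. Both genes are also expressed outside vessels. In 5xFAD against WT 4 of the 35 genes were higher without overlap (background 10.5%). In 5xFAD/p75NTRko against 5xFAD 3 of the 35 were lower without overlap (background 6.03%).

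Of 20 other mural genes 13 were tested, and the median of their log2 fold changes came to -0.10 in 5xFAD against WT and 0.0498 in carriers against non-carriers. Cnn1, Myh11 and Des, further contractile and filament genes of smooth muscle, had at most 10 counts and were not tested. The smallest p-values of the list belonged to Tpm2 and Atp13a5. Tpm2, a tropomyosin, had a log2 fold change of -1.09 (standard error 0.396, edgeR adjusted p 0.362) in p75NTRko against WT, and Atp13a5, a pericyte marker, one of -0.54 (standard error 0.2, edgeR adjusted p 0.469) in 5xFAD/p75NTRko against WT. Of 30 genes for signals to and within vessels, 29 were tested, from VEGF, angiopoietin and PDGF ligands to Notch and Wnt components of barrier formation. Vegfa, the ligand of Kdr and Flt1 made largely by other brain cells, had 46, 34.8 and 45.7 CPM in WT and 50.9, 59.2 and 54.7 in 5xFAD/p75NTRko-labelled libraries, with a log2 fold change of 0.38 (standard error 0.125, edgeR adjusted p 0.442). Vegfb, a ligand of Flt1, had 51.8, 57.9 and 43.1 CPM in WT and 31.3, 39.7 and 40.5 in p75NTRko-labelled libraries, and its log2 fold change was -0.45 (standard error 0.154, edgeR adjusted p 0.342). In both cases the libraries did not overlap, as in 2 of 29 genes for the direction of Vegfa (background 5.95%) and 1 of 29 for that of Vegfb (background 8.49%).

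Single libraries stood apart across many members. WT replicate 3 had 23 of 26 endothelial genes above their own median over the 12 libraries and 6 of 8 tested mural genes, a mural count shared by 5xFAD replicate 2 and 5xFAD/p75NTRko replicate 3. It was the highest library for 6 of the 35, as was p75NTRko replicate 1, followed by WT replicate 1 with 5. 5xFAD/p75NTRko replicate 2 had 5 of 26 above the median and was the lowest library for 12 of the 35, followed by WT replicate 2 with 7. The other 10 libraries had 9 to 16 of 26 endothelial genes above. Transcripts of neighbouring cells varied too: 12 genes of meningeal and perivascular fibroblasts summed to 164, 188 and 306 CPM for WT, 185, 238 and 78.1 for 5xFAD, 140.5, 179.5 and 121 under the p75NTRko label and 219, 125 and 141 under the 5xFAD/p75NTRko label. The highest of these was WT replicate 3; the lowest was 5xFAD replicate 3. Of the 12, 11 genes had reads in every library and the 11 tested had a median log2 fold change of -0.51 in 5xFAD against WT, -0.69 in p75NTRko against WT and -0.77 in 5xFAD/p75NTRko against WT. The choroid plexus list summed to 2475, 3267 and 6138 CPM for WT, 1996, 1387 and 331 for 5xFAD, 7491, 4567 and 5397 under the p75NTRko label and 7402, 185 and 373 under the 5xFAD/p75NTRko label; 3 of its genes were at 0 in 5xFAD/p75NTRko replicate 2 and 1 in replicate 3. The part of carried-along meninges and choroid plexus in the vascular values was not tested.

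**Figure D4:**
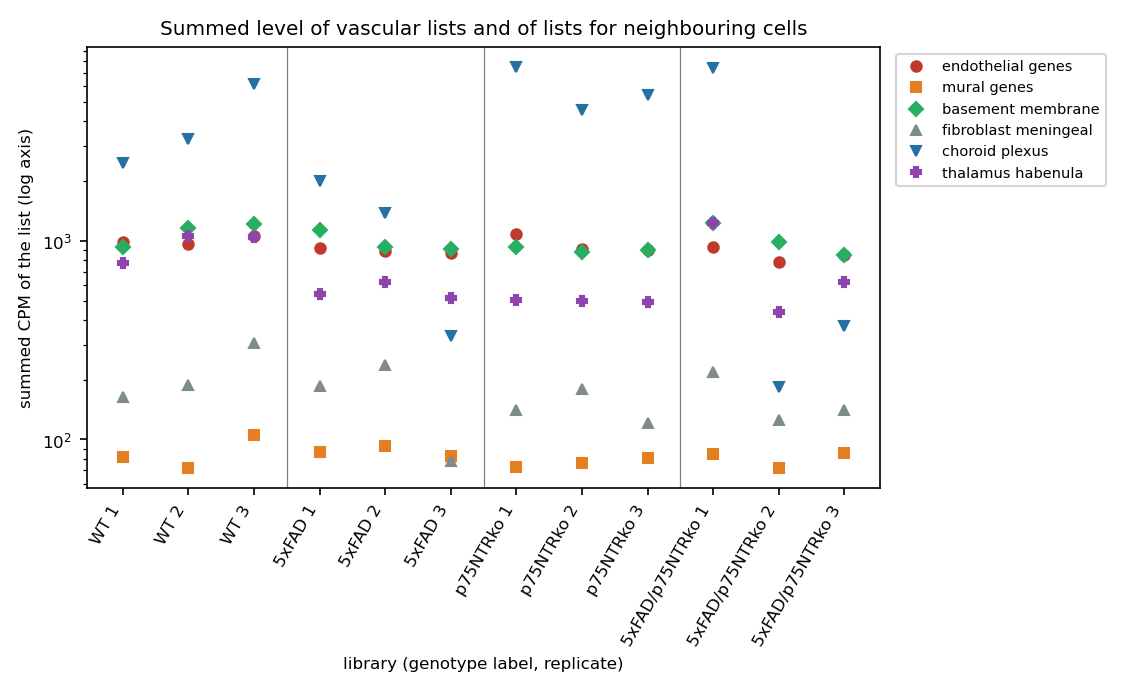
Summed CPM (log axis) of the endothelial and mural genes and of lists for basement membrane, fibroblasts, choroid plexus and thalamus in each library. The endothelial sum stays between 780.2 and 1083 CPM, while the choroid plexus sum runs from 185 to 7491 CPM.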

How the data were processed

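Total RNA from hippocampal tissue was made into QuantSeq 3′ forward libraries with 14 amplification cycles, per the labels' protocols. The authors deposited raw read counts per gene symbol. FastQC, HISAT2, SAMtools, HTSeq and edgeR and the build mm10 are named in the submitters' processing notes, without versions; annotation and strand setting are not given in the sources used here. Summary lines of the counter were left out, and 32.2% to 38.5% of reads were assigned to genes. Columns of other samples numbered 0.

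The tests were run with edgeR 4.0.16 under R 4.3.3 (filterByExpr by genotype, TMM, 1 mean per genotype fitted to all 12 libraries, quasi-likelihood test, Benjamini-Hochberg over 13065 genes, threshold 0.05); the common biological coefficient of variation was 13.8%. Standard errors came from the F statistic and CPM from TMM-scaled libraries; a prior count of 2 was added for log2 CPM. The procedure was tested on simulated counts, which held no differences in Xist class or tissue content between libraries. Alternatives were DESeq2 1.42.0, RLE scaling, other filters on low counts, fits on the compared genotypes alone, a replicate block, Xist class as a term and leaving out libraries.

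The members and lists were chosen with earlier results of these data known. Named with full values were members called, the 2 smallest p-values per comparison and 10 preset members; of each other list, the 2 smallest p-values. Some genes of these lists are not reported here. Gene positions are from GENCODE M21 (GRCm38, the same assembly as mm10).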

Additional observations from a re-analysis of the deposited data

How the results depend on the processing

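The count of members called stayed at 0 in all 8 comparisons under DESeq2, with RLE in place of TMM, without the low-count filter, with genes held to a mean of 50 counts, with Xist class as a term and with each library left out in turn. It was also 0 in the 5 pairwise comparisons fitted on their own genotypes alone, a fit not made for the other 3, which use all libraries. The 1 exception was 1 member, Pltp, in 5xFAD/p75NTRko against p75NTRko, with WT replicate 3 and 5xFAD/p75NTRko replicate 1 both left out. In that fit 56 of all genes tested were called in the comparison. Calls over all genes changed more. Without WT replicate 3 they numbered 57 in 5xFAD against WT and 26 in p75NTRko against WT (7 and 0 with all libraries). In 5xFAD/p75NTRko against WT, 5xFAD and p75NTRko they numbered 4, 2 and 0 (0, 5 and 0 with all libraries). For the interaction, carriers and receptor label they numbered 6, 2 and 14 (5, 2 and 11 with all libraries). With replicate number as a block 0 members were called. Replicate numbers do not pair the libraries, since deviations of same-numbered libraries had correlations of -0.424 to 0.145, above 0.1 in 2 of 18 pairs.

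List medians moved by more than their spread between replicates (0.0978 for endothelial and 0.122 for mural genes on the log2 scale) as follows. With Xist class as a term, the mural median in 5xFAD against WT became 0.0457, and the endothelial median 0.0801 for p75NTRko against WT and 0.071 for 5xFAD/p75NTRko against 5xFAD. With a mean of at least 50 counts, the mural median in p75NTRko against WT was -0.0339, with fewer genes tested. Without both libraries named above, the mural median was 0.19 in 5xFAD against WT and -0.15 in p75NTRko against WT, and the endothelial median 0.0461 in p75NTRko against WT and -0.30 for the interaction. Leaving out 1 library at a time, the mural median ranged over -0.15 to 0.19 in 5xFAD against WT, -0.30 to -0.11 in p75NTRko against WT, -0.26 to 0.11 in 5xFAD/p75NTRko against WT and 0.00695 to 0.25 for the interaction. The endothelial median ranged over -0.0893 to 0.0455 in p75NTRko against WT and -0.14 to 0.0524 for the interaction. Within that spread, it ranged over -0.16 to -0.0338 in 5xFAD against WT and -0.27 to -0.0897 in 5xFAD/p75NTRko against WT. Mfsd2a in 5xFAD against WT was the 1 named result that reversed, to 0.42 with Xist class as a term; the cause was not tested. Depth limits members with few counts most, whose intervals were the widest.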

Other observations

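The vascular basement membrane, the sheet of matrix shared by endothelium and pericytes, was followed through 11 genes, all of them tested. Fn1, which encodes fibronectin, had 105, 122 and 143 CPM for WT, 87.3, 95.1 and 71.4 for 5xFAD, 82.4, 84 and 73.2 under the p75NTRko label and 78, 62.3 and 73 under the 5xFAD/p75NTRko label. Every WT library was above all 9 others, and the fitted log2 difference was -0.80 (standard error 0.134, edgeR adjusted p 0.0679) in 5xFAD/p75NTRko against WT, -0.63 (standard error 0.134, edgeR adjusted p 0.16) in p75NTRko against WT and -0.54 (standard error 0.133, edgeR adjusted p 0.157) in 5xFAD against WT, by edgeR. None passed, although DESeq2 (adjusted p 0.000159) and edgeR without a filter on low counts (adjusted p 0.00643) called the first. The 3 comparisons share the WT libraries, and Fn1 is also made by fibroblasts and some neurons. In 5xFAD against WT 2 of the 11 genes were lower without overlap (background 9.01%). In p75NTRko against WT 1 was (background 8.49%), and in 5xFAD/p75NTRko against WT 2 were (background 5.53%). Col4a1, a chain of type IV collagen, had 18.8, 19.1 and 22 CPM for WT, 23.7, 27.9 and 29.8 for 5xFAD, 26.3, 25.7 and 29.2 under the p75NTRko label and 22.1, 25.9 and 21.4 under the 5xFAD/p75NTRko label, with an interaction of -0.67 (standard error 0.192, edgeR adjusted p 0.359). The median of the 11 genes was -0.21 in 5xFAD against WT, with 10 below 0, and 0.0778 in p75NTRko against WT, with 5 below 0.

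In the lists of other cells 0 genes passed in any comparison by edgeR as fitted to all libraries, but 9 of the genes named passed in some alternatives, given at the end. Among fibroblast genes the smallest p-values were those of Fmod in p75NTRko against WT, log2 fold change -1.52 (standard error 0.526, edgeR adjusted p 0.344), and Slc13a4 in carriers against non-carriers, log2 fold change -1.01 (standard error 0.373, edgeR adjusted p 0.395). Perivascular macrophages, which line larger vessels, were followed through Mrc1, F13a1 and 5 other genes with a summed level of 14.3 to 35.4 CPM; F13a1 and Mrc1 had log2 fold changes of -0.68 (standard error 0.372, edgeR adjusted p 0.489) and -0.61 (standard error 0.357, edgeR adjusted p 0.52) in p75NTRko against WT. Microglial genes summed to 498 to 589 CPM, and C1qa had a log2 fold change of -0.59 in 5xFAD against WT (adjusted p 0.236, edgeR). Astrocyte genes, which include those of the endfeet on vessels, summed to 5659 to 6311 CPM. Gfap in 5xFAD/p75NTRko against WT (-0.52, adjusted p 0.325, edgeR) and Aqp4, the endfoot water channel, in carriers against non-carriers (-0.38, adjusted p 0.342, edgeR) led that list. Oligodendrocyte genes summed to 4125 to 7784 CPM and were led by Mog and Mal in the interaction (-1.26 and -0.93, adjusted p 0.305 and 0.319, edgeR). Choroid plexus genes were led by 1500015O10Rik and F5 in carriers against non-carriers (-1.57 and -1.55, adjusted p 0.389 and 0.426, edgeR), thalamic genes by Rora and Ramp3 in the interaction (1.65 and 2.74, adjusted p 0.112 and 0.286, edgeR) and hippocampal neuron genes by Neurod6 and Spink8 in 5xFAD against WT (0.70 and 0.76, adjusted p 0.15 and 0.213, edgeR). Leaving out 5xFAD/p75NTRko replicate 1 brought 1500015O10Rik to -2.96 (adjusted p 0.00937), F5 to -3.24 (adjusted p 0.0131) and Aqp4 to -0.52 (adjusted p 0.0215), by edgeR. Leaving out 5xFAD/p75NTRko replicate 2 brought Rora to 1.92 (adjusted p 0.000377) and Ramp3 to 3.18 (adjusted p 0.000408), by edgeR. Leaving out WT replicate 3 brought Neurod6 to 0.85 (adjusted p 0.0491) and Spink8 to 1.02 (adjusted p 0.0487), by edgeR. DESeq2 called Rora (adjusted p 0.000179), Neurod6 (0.0159), Mog (0.0317) and Mal (0.0403), and edgeR without a filter on low counts called Rora (adjusted p 0.00317), Ramp3 (0.0112) and Neurod6 (0.0450). With WT replicate 3 and 5xFAD/p75NTRko replicate 1 both out, the genes past the threshold by edgeR were 1500015O10Rik, F5, Aqp4, Mog, Rora, Neurod6 and Spink8, with adjusted p from 0.00268 to 0.0494. Mrc1 went to -0.40 without WT replicate 3 and to -0.26 without p75NTRko replicate 3.

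The haemoglobin genes Hba-a1, Hba-a2, Hbb-bs and Hbb-bt were listed at 0 in every library, and Alas2 and Slc4a1 had at most 6 counts, so that blood left in the vessels could not be gauged from these genes.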
